A study of Mus musculus with 12 samples.

Results

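The genes described here are 9 genes of the MHC class I presentation route: B2m, H2-K1 and H2-D1, which encode the chains of the class I molecule, Tap1, Tap2 and Tapbp, which serve peptide transport and loading, Nlrc5, a transcriptional activator of class I genes, and Psmb8 and Psmb9, which encode subunits of the immunoproteasome. They were chosen by name, as the rows of a table of normalized counts that carry these symbols, and are 9 of 54547 genes in that table. All 9 reached the level needed for testing, as did 29835 genes in all. RNA had been sequenced from sorted mouse brain cells in 12 libraries, 4 groups of 3. Control GFP+ and control CD11b+ cells came from the cerebellum of Msi1-CreER;GFP mice. RasV12 GFP+ and RasV12 CD11b+ cells came from tumors of Msi1-CreER;RasV12 mice. All mice had a mixed 129 and C57BL/6 background and carried the CreER transgene named for Msi1, the gene of an RNA-binding protein of neural stem and progenitor cells. Tumors and cerebellum differ in tissue as well as in genotype, so these cannot be told apart. The labels used here give neither age nor the way Cre was induced, and do not tie replicates to separate animals. The p-values therefore reflect only how far these libraries scatter, and that scatter may be technical.

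Class I molecules show peptides from inside the cell to CD8 T cells. The proteasome cuts proteins to peptides, the TAP transporter carries them into the endoplasmic reticulum, and tapasin with other chaperones loads them onto a heavy chain that is paired with beta-2 microglobulin. Interferons raise most of these genes together, partly through NLRC5, and neurons and glia of the healthy brain are known for low class I levels, while microglia carry more.

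Itgam, the gene of CD11b, had no read in control GFP+ libraries and a normalized count of 0.2 ± 0.3 in RasV12 GFP+ libraries. It had 5116.8 ± 126.3 in control CD11b+ and 1936.1 ± 1009.1 in RasV12 CD11b+ libraries (SD, n = 3). The summed count of 16 microglia and macrophage markers reached 269030.6 to 801418.4 in control CD11b+ cells, 80115.0 to 136742.2 in RasV12 CD11b+ cells, and only 432.3 to 1681.0 and 1220.3 to 2378.5 in the control and RasV12 GFP+ cells. Cd68 alone held 1497.0, 1346.5 and 868.0 in RasV12 GFP+ libraries 1 to 3. Between the GFP+ groups limma called Cd68 higher with RasV12 and Laptm5 lower (adjusted p = 0.00331 and 0.0162), and no other marker of the list. Trem2, on that list, shares its symbol between 2 rows of the table and its value is uncertain. Control GFP+ libraries held 966984.5 to 1607874.7 counts of 10 oligodendrocyte lineage markers and 76500.6 to 100954.8 counts of 10 neuron markers, against 3760.0 to 17978.9 and 2045.3 to 3133.2 in RasV12 GFP+ libraries. Counts of 9 astrocyte and Bergmann glia markers were 275607.8 to 303888.7 against 36814.3 to 94814.0, and those of 5 erythroid markers 8893.9 to 774410.0 against 82.9 to 506.8, in the same order. Between the CD11b+ groups, 9 endothelial and pericyte markers held 4478.6 to 5224.3 with RasV12 against 570.4 to 2833.5. Summed counts of the neuron markers were 4335.0 to 7446.3 against 1269.0 to 3816.9, of which Syt1 had a mean of 3219.6 against 482.3. The median log2 difference of the 10 neuron markers was only 0.05, with Syt1 called higher and Pcp2 called lower by limma. The part of these differences in the class I results was not tested. In bulk samples, fewer cells of a type and less RNA per cell cannot be told apart. Recovered reads numbered 2951629 to 34601205 per library, and were fewest in RasV12 CD11b+ 1 and 2 and control CD11b+ 2. Olfactory, vomeronasal and taste receptor genes, which brain cells are not known for, served as a measure of unspecific signal. Replicates of RasV12 CD11b+ cells correlated less with each other over genes (Pearson r 0.512 to 0.537) than those of the other groups (0.657 to 0.887). Mitochondrial transcripts took 20.1 to 30.4% of counts in control GFP+ cells and 13.3 to 17.7% in RasV12 CD11b+ cells, against 1.53 to 2.62% and 0.63 to 2.54% in RasV12 GFP+ and control CD11b+ cells, and their part in the results was not tested. Receptor genes held 0.859 to 3.41 normalized counts per kb in the 6 GFP+ libraries, 4.65, 37.8 and 4.76 in control CD11b+ 1 to 3 and 79.1, 90.2 and 59.3 in RasV12 CD11b+ 1 to 3.

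B2m rose in RasV12 GFP+ cells and fell in RasV12 CD11b+ cells. B2m encodes beta-2 microglobulin, the light chain that every class I molecule needs. Its normalized counts were 4705.6, 4551.3 and 3888.2 in control GFP+ libraries 1 to 3 and 8938.5, 11969.8 and 14122.7 in RasV12 GFP+ libraries 1 to 3. In control CD11b+ libraries they were 45725.7, 24698.7 and 24282.7, and in RasV12 CD11b+ libraries 11590.7, 6651.3 and 18750.3. Every RasV12 GFP+ library stood above every control GFP+ library, and every RasV12 CD11b+ library stood below every control CD11b+ library. The group means were 4381.7 ± 434.3, 11677.0 ± 2604.5, 31569.0 ± 12261.8 and 12330.8 ± 6083.4 in that order of groups. The tumor thus had GFP+ and CD11b+ cells with overlapping B2m counts, while in control cerebellum the CD11b+ mean was 7.2-fold the GFP+ mean.

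**Figure D1:**
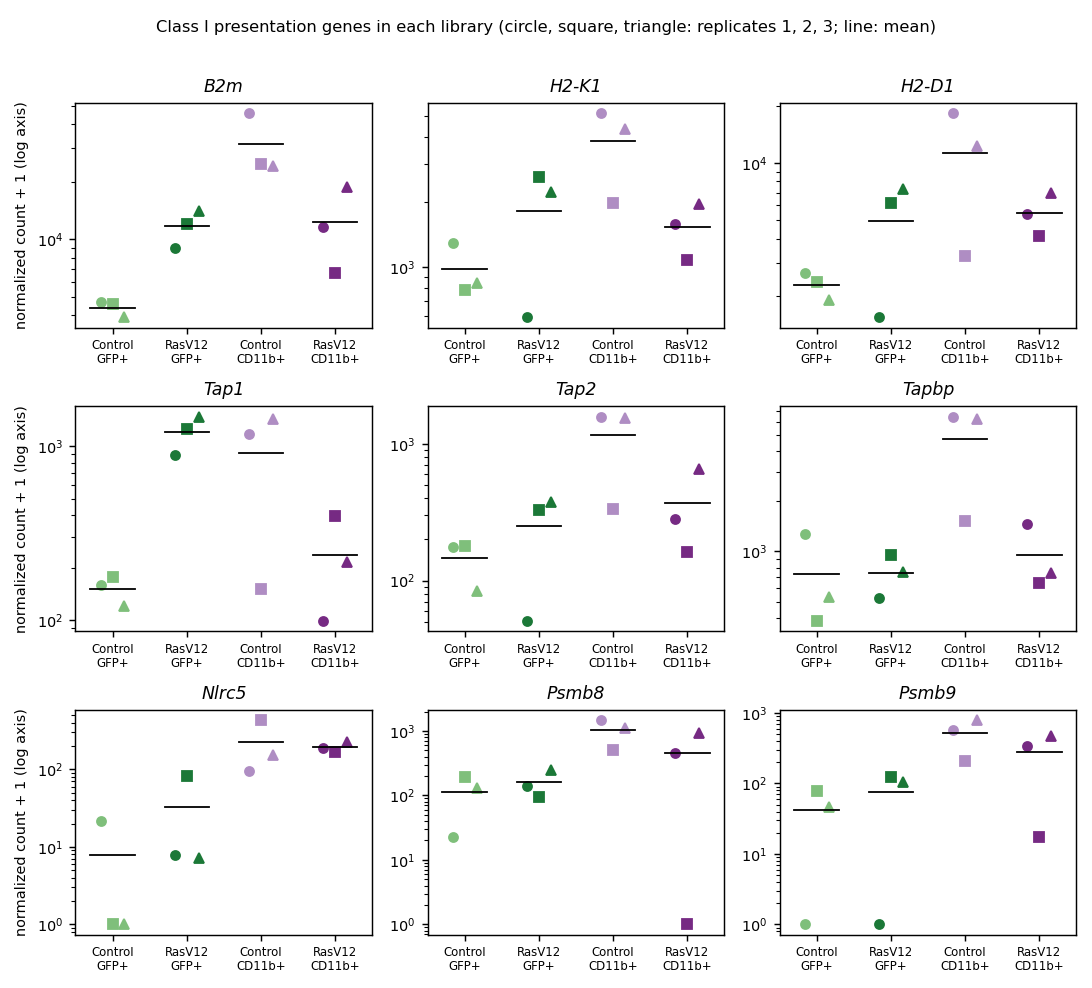
Normalized count + 1 (log axis) of each of the 9 genes in the 12 libraries, by group. Circles, squares and triangles are replicates 1, 2 and 3 and lines are group means. The Tap1 and B2m points of RasV12 GFP+ cells lie above all control GFP+ points, and Psmb8 has no read in 1 RasV12 CD11b+ library.

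On the log2(normalized count + 1) scale, B2m rose by 1.39 ± 0.34 (SE) in RasV12 against control GFP+ cells (limma, Benjamini-Hochberg adjusted p = 0.0249), a ratio of means of 2.66. No other of the 9 genes was called in that comparison, in which 4.14% of all genes tested were called higher and 2.65% lower. In CD11b+ cells, B2m fell by 1.42 ± 0.34 (limma adjusted p = 0.0316), with a control mean 2.56 times the RasV12 mean. It was again the only gene of the 9 called, where 2.39% of genes were called lower and 2.97% higher. Both calls were near the threshold. Without any of control GFP+ 1, 2 or 3 or RasV12 GFP+ 2 or 3 the GFP+ call was lost, at adjusted p = 0.0517, 0.0655, 0.0749, 0.0846 and 0.104. Without any of control CD11b+ 1 or 3 or RasV12 CD11b+ 1 or 2 the CD11b+ call was lost, at adjusted p = 0.145, 0.0751, 0.0733 and 0.0939. Without both RasV12 CD11b+ 1 and 2, the libraries with the fewest reads, the difference was -0.69 (adjusted p = 0.396). Over all settings the GFP+ call passed in 15 of 25 alternatives and the CD11b+ call in 15 of 25. The GFP+ call was also lost with FPKM values, no filter, upper-quartile scaling, edgeR and receptor signal subtracted (adjusted p = 0.0668, 0.064, 0.0656, 0.176 and 0.128). The CD11b+ call was lost with no filter, edgeR, a fit of the 6 CD11b+ libraries and receptor signal subtracted (adjusted p = 0.0661, 0.0999, 0.119 and 0.0627), and with quantile normalization the difference was -0.51 (adjusted p = 0.333).

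The RasV12 effects on B2m differed between the sorted populations in a direct test. That test shows a difference of effects and not that their signs are opposite. The signs rest on the separate comparisons above, where each estimate kept its sign but each call passed in 15 of 25 alternatives. The RasV12 effect in CD11b+ cells minus that in GFP+ cells was -2.81 ± 0.48 on the log2 scale (limma adjusted p = 0.00659), where 2.34% of all genes were called lower and 2.06% higher. It passed in 24 of 24 alternatives, with adjusted p between 0.00116 and 0.0391. Over all genes tested, the median difference was 0.07. Receptor signal at the exon length of B2m came to at most 1.17% of its count in any library.

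H2-K1 and H2-D1 encode the polymorphic heavy chains that hold the peptide. The normalized counts of H2-K1 were 1297.7, 782.7 and 850.5 in control GFP+, 587.1, 2610.5 and 2228.5 in RasV12 GFP+, 5129.8, 1968.3 and 4337.0 in control CD11b+ and 1577.5, 1079.9 and 1950.6 in RasV12 CD11b+ libraries. H2-D1 had 2637.6, 2367.5 and 1906.5, then 1548.5, 6149.7 and 7263.4, then 18259.1, 3266.0 and 12248.4, and last 5378.7, 4148.1 and 6952.8, in the same order of libraries. For both genes RasV12 GFP+ 1 lay below all 3 control GFP+ libraries while RasV12 GFP+ 2 and 3 lay above them, although B2m was high in all 3. The RasV12 effect in GFP+ cells was 0.66 ± 0.57 for H2-K1 (limma adjusted p = 0.632) and 0.85 ± 0.61 for H2-D1 (adjusted p = 0.536), and did not pass. In CD11b+ cells H2-K1 counts did not overlap between RasV12 and control libraries, but its log2 difference of -1.24 ± 0.57 did not pass (adjusted p = 0.184). H2-D1 differed by -0.75 ± 0.61 (adjusted p = 0.446), with overlapping groups.

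Per length, B2m was the most abundant of the 9 genes in every group, with mean FPKM of 306, 814, 2200 and 860 in control GFP+, RasV12 GFP+, control CD11b+ and RasV12 CD11b+ cells. H2-D1 followed with 53.6, 116, 262 and 128 FPKM and H2-K1 with 22.5, 41.6, 87.7 and 35.3 FPKM. FPKM of B2m over the summed FPKM of H2-K1 and H2-D1 was 3.6 to 6.33 in 10 libraries, 12.6 in RasV12 GFP+ 1 and 14.2 in control CD11b+ 2. In those libraries B2m was high beside low heavy chains. Of 50-base windows of the annotated transcripts, 9.6% in H2-K1 and 12.8% in H2-D1 occurred in another gene, mostly other H2 genes, so a part of their reads could be split by the counting. B2m had none. In GRCm38 coordinates B2m is at chr2:122147686-122153083 on the forward strand, H2-K1 at chr17:33996017-34000347 on the reverse strand and H2-D1 at chr17:35262730-35267499 on the forward strand.

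The upstream sequences of these 3 genes are shown because of known features of class I promoters. These are an enhancer with NF-kB and interferon regulatory factor sites and an SXY module, the docking place of NLRC5. The letters are from RefSeq on GRCm38.p6, read 5′ to 3′ on the gene's own strand, and capitals mark matches, on either strand, to NF-kB (GGG, any 5 bases, CC), IRF (AANNGAAA), X2 (TGACG) and Y box (CCAAT) letters. B2m is shown from 190 to 45 bases before its start (chr2:122147497-122147642) and H2-K1 from 130 to 10 bases before its start (chr17:34000357-34000477, reverse strand).
B2m: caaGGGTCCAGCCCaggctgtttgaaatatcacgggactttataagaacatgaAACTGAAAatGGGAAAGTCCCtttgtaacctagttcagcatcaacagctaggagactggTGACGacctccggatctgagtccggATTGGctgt
H2-K1: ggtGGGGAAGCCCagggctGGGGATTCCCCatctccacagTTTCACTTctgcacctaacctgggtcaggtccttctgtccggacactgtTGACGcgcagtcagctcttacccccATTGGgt

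The same blocks stand in H2-D1, 60 bases farther from its RefSeq start. There they fall within the gene as GENCODE annotates it. To compare the heavy chains, the NF-kB and IRF block is given first for H2-K1 (chr17:34000430-34000459, reverse strand) and H2-D1 (chr17:35262922-35262951), and then the X2 and Y box block for H2-K1 (chr17:34000359-34000388, reverse strand) and H2-D1 (chr17:35262993-35263022).
H2-K1 enhancer block: tGGGGATTCCCCatctccacagTTTCACTT
H2-D1 enhancer block: tGGGGATTCCCCatctcctcagTTTCACTT
H2-K1 SXY block: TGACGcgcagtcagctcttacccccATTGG
H2-D1 SXY block: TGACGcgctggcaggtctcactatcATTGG
The enhancer blocks share 29 of 30 letters and the SXY blocks 23 of 30, and over the 190 bases where both upstream windows align, 166 were identical. B2m, H2-K1 and H2-D1 each hold letters of all 4 motifs within 250 bases before the start, which 0.514% of 27025 RefSeq promoters do. Alone, NF-kB letters occur in 45.4%, IRF letters in 21.6%, X2 letters in 17.9% and Y box letters in 34.5% of promoters. A match is a description of letters and shows no binding.

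**Figure D2:**
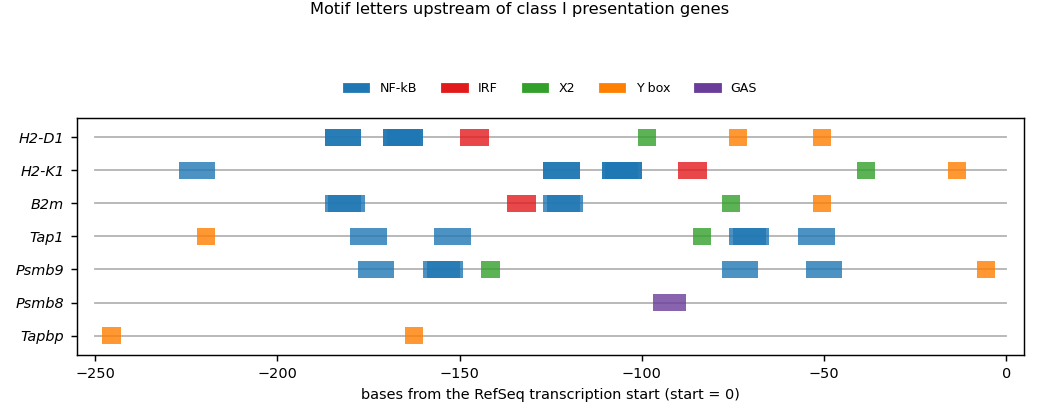
Positions of motif letters on either strand in the 250 bases before the RefSeq start of the 7 genes found in the promoter table (x axis: bases from the start, negative upstream). In B2m, H2-K1 and H2-D1 the X2 and then Y box letters lie nearest the start, with NF-kB and IRF letters farther upstream, Psmb8 holds only GAS letters (TTCNNNGAA, in 7.18% of promoters), and Nlrc5 and Tap2 were not matched.

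Tap1 had its highest group mean in RasV12 GFP+ cells, unlike the other 8 genes, whose highest mean was in control CD11b+ cells. The ranges of these groups overlapped for Tap1, and the order rested on control CD11b+ 2: without it the control CD11b+ mean of Tap1 was 1302.8, above the 1207.7 of RasV12 GFP+ cells. That of Nlrc5 without it was 121.8, below the 192.8 of RasV12 CD11b+ cells. TAP1 and TAP2 together form the peptide transporter. Normalized counts of Tap1 were 157.4, 175.6 and 120.0 in control GFP+ and 886.5, 1254.8 and 1481.7 in RasV12 GFP+ libraries. They were 1171.1, 149.7 and 1434.4 in control CD11b+ and 98.0, 398.7 and 214.4 in RasV12 CD11b+ libraries. The RasV12 GFP+ libraries were above all control GFP+ libraries, with a ratio of means of 8.0. Tap1 and B2m were the 2 of 9 genes whose GFP+ groups did not overlap in the higher direction, as was true of 17.2% of all genes. The log2 difference of 2.98 ± 0.84 missed the threshold by little (limma adjusted p = 0.05002), and 9 of 25 alternatives put it past the threshold, with adjusted p from 0.00166 to 0.722 over all.

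Within tumors, Tap1 was lower in CD11b+ than in GFP+ cells, by -2.53 ± 0.84 on the log2 scale (limma adjusted p = 0.0291). None of the other 8 genes was called in that comparison, where 10.2% of genes were called lower and 29.8% higher. The call was lost without RasV12 GFP+ 1, 2 or 3 (adjusted p = 0.0522, 0.0799 and 0.0929) and without RasV12 CD11b+ 1 (adjusted p = 0.0904), and without both RasV12 CD11b+ 1 and 2 (-2.46, adjusted p = 0.133). The difference of the RasV12 effects was -4.61 ± 1.19 for Tap1 (limma adjusted p = 0.0444), so Tap1 and B2m were the 2 of 9 genes called there, against 2.34% of all genes called lower. For Tap1 that call was past the threshold in 9 of 24 alternatives (adjusted p = 0.000245 to 0.13), and was lost without any single library other than control CD11b+ 2 and RasV12 CD11b+ 2. In the 3 RasV12 CD11b+ libraries, Tap1 counts rested on 22, 72 and 357 reads and lay below the receptor level at its length, which was 433, 494 and 325. In control CD11b+ 2 the count was also below that level, 207.

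Tap2 had normalized counts of 176.4, 177.2 and 83.4 in control GFP+, 49.7, 326.7 and 377.0 in RasV12 GFP+, 1588.2, 332.3 and 1549.0 in control CD11b+ and 280.7, 160.6 and 657.0 in RasV12 CD11b+ libraries. Like the heavy chains, it was lowest in RasV12 GFP+ 1 and above control in RasV12 GFP+ 2 and 3. Its RasV12 effect of 0.41 ± 0.94 in GFP+ cells (limma adjusted p = 0.896) and of -1.59 ± 0.94 in CD11b+ cells (adjusted p = 0.284) did not pass. Tap2 lay below the receptor level at its length in RasV12 CD11b+ 1 and 2, where that level was 299 and 341. Receptor signal came to 34.1% of its count in RasV12 CD11b+ 3 and 43.0% in control CD11b+ 2. The FPKM of Tap1 over that of Tap2 was 0.607, 0.679 and 1.0 in control GFP+ and 12.1, 2.63 and 2.7 in RasV12 GFP+ libraries. It was 0.508, 0.302 and 0.638 in control CD11b+ and 0.244, 1.76 and 0.221 in RasV12 CD11b+ libraries. Tap1 thus exceeded Tap2 per length in every RasV12 GFP+ library and in only 1 of the other 9, RasV12 CD11b+ 2, where both were below the receptor level. The mean log2 ratio was 2.14 in RasV12 GFP+ against -0.426 in control GFP+ cells, without overlap (exact two-sided permutation test p = 0.1). That is the smallest p that 3 against 3 libraries allow, and 16 such comparisons of ratios and shares were made. Tap1 and Tap2 share 25 windows of 50 bases, 0.4% and 0.7% of their windows.

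Tap1 and Psmb9 stand head to head on chromosome 17, Psmb9 at chr17:34181987-34187764 on the reverse strand and Tap1 at chr17:34187553-34197225 on the forward strand, with 212 bases of overlapping exons. Libraries without strand cannot assign reads from that overlap. Psmb8 at chr17:34197721-34201454 and Tap2 at chr17:34203527-34216321 follow on the forward strand. The Tap1 stretch below (chr17:34187461-34187490, 95 to 66 bases before its RefSeq start) lies within annotated exon sequence and is shown because it holds X2 letters beside NF-kB letters near the start shared with Psmb9.
Tap1: agagacaggTGACGacagaGGGTCCTGCCC
Letters of both X2 and Y box occur in 6.39% of promoters. The 250 bases before Tap1 and before Psmb9 overlap, and both hold the same X2 and Y box letters, read from opposite strands. They are therefore not separate cases. From the Tap1 start the X2 letters lie at -86 to -82 and the Y box letters at -222 to -218, farther apart than in the SXY blocks above. The counts of Tap1 and Psmb9 had a Pearson r of 0.11 over the 12 libraries on the log2 scale, among the lowest of the 36 pairs of genes.

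Tapbp encodes tapasin, which bridges TAP and the empty class I molecule. Its normalized counts were 1278.1, 381.7 and 528.0 in control GFP+, 526.6, 956.7 and 752.1 in RasV12 GFP+, 6449.8, 1528.2 and 6194.7 in control CD11b+ and 1461.7, 642.4 and 743.5 in RasV12 CD11b+ libraries. The GFP+ groups had nearly the same mean, 729.3 ± 480.9 and 745.1 ± 215.1, with a log2 difference of 0.19 (95% interval -1.19 to 1.56). In CD11b+ cells all RasV12 libraries were below all control libraries, and the control mean was 4.98 times the RasV12 mean. The log2 difference of -2.15 ± 0.64 did not pass (limma adjusted p = 0.0648), and passed in 6 of 25 alternatives (adjusted p = 0.0109 to 0.256). With B2m and H2-K1, Tapbp made up the 3 of 9 genes whose CD11b+ groups did not overlap in the lower direction, as was true of 8.59% of all genes. Receptor signal at its length came to 19.6%, 50.9% and 28.9% of its counts in RasV12 CD11b+ 1 to 3.

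Nlrc5 encodes the class I transactivator, and lies at chr8:94434356-94527272. Its normalized counts were 20.8, 0 and 0 in control GFP+, 6.8, 81.4 and 6.1 in RasV12 GFP+, 93.3, 434.1 and 150.2 in control CD11b+ and 187.2, 166.1 and 225.2 in RasV12 CD11b+ libraries. It was low in every GFP+ library, and both CD11b+ groups stood above it. The RasV12 effects were 2.57 ± 1.4 in GFP+ cells (limma adjusted p = 0.364) and 0.07 ± 1.4 in CD11b+ cells (adjusted p = 0.983), and the latter interval reached from -2.95 to 3.08. Nlrc5 was 3.54 ± 1.4 higher on the log2 scale in CD11b+ than in GFP+ cells of tumors, which did not pass (adjusted p = 0.0586). It was 1 of 9 genes without overlap in the higher direction there, as were 36.0% of all genes, and Tap1 was 1 of 9 in the lower direction, as were 14.8%. In all 3 RasV12 CD11b+ libraries, however, Nlrc5 lay below the receptor level at its length of 672, 766 and 503, and in 2 of 3 libraries of each GFP+ group it was also at or below it. It exceeded that level in all 3 control CD11b+ libraries, where the level was 39.5, 321 and 40.4.

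Psmb8 and Psmb9 encode the inducible catalytic subunits that replace the constitutive Psmb5 and Psmb6 subunits. The normalized counts of Psmb8 were 22, 190.9 and 127.2 in control GFP+, 136.8, 94.0 and 245.0 in RasV12 GFP+, 1484.7, 510.4 and 1124.0 in control CD11b+ and 454.5, 0 and 933.3 in RasV12 CD11b+ libraries. Psmb9 had 0, 77.0 and 45.8, then 0, 124.4 and 103.4, then 565.2, 206.6 and 797.9, and last 334.2, 16.6 and 478.1. Both genes were highest in control CD11b+ cells, and RasV12 CD11b+ 2, with 0 and 3 reads of them, stood apart from the other CD11b+ libraries. A count of 0 reads in that library allows up to 3 reads, and covers counting error only. The RasV12 effects did not pass for Psmb8 (0.84 ± 1.92 in GFP+ and -3.66 ± 1.92 in CD11b+ cells, limma adjusted p = 0.897 and 0.236). Those of Psmb9 were 0.61 ± 2.03 and -1.68 ± 2.03 (adjusted p = 0.949 and 0.614). Intervals this wide could not show a change of a few fold.

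Set against the constitutive counterparts per length, the inducible subunits made up a larger share in CD11b+ than in GFP+ libraries of control cerebellum, without overlap for the 3 pairs. Psmb8 was 0.486%, 3.91% and 2.19% of the summed FPKM of Psmb8 and Psmb5 in control GFP+, and 4.46%, 3.95% and 10.3% in RasV12 GFP+ libraries. It was 50.9%, 42.6% and 53.0% in control CD11b+ and 41.7%, 0% and 72.7% in RasV12 CD11b+ libraries. The control CD11b+ share, 48.8 ± 5.5% (SD, n = 3), exceeded the control GFP+ share of 2.2 ± 1.71% without overlap, and the tumor groups overlapped through RasV12 CD11b+ 2. Psmb9 was 0.365 ± 0.331% of its pair with Psmb6 in control GFP+, 0.767 ± 0.664% in RasV12 GFP+, 12.1 ± 8.13% in control CD11b+ and 13.1 ± 11.1% in RasV12 CD11b+ cells, and its tumor groups also overlapped through RasV12 CD11b+ 2, at 0.521%. Receptor signal at the length of Psmb9 came to 86.7% and 45.4% of its count in RasV12 CD11b+ 1 and 3. It exceeded the count in RasV12 CD11b+ 2, and came to 66.9% in control CD11b+ 2. For Psmb8 that signal came to 58.9% and 21.5% of the count in RasV12 CD11b+ 1 and 3 and 25.0% in control CD11b+ 2. Psmb10, the gene of the remaining inducible subunit, was 50.7 ± 3.2% of its pair with Psmb7 in control GFP+ and 28.9 ± 3.32% in RasV12 GFP+ cells, without overlap. It was 85.8 ± 6.39% in control CD11b+ and 83.9 ± 3.16% in RasV12 CD11b+ cells, higher than in GFP+ cells without overlap in both tissues, but Psmb7 was at or below the receptor level in all 3 RasV12 CD11b+ libraries. For 3 against 3 libraries the exact permutation test gave p = 0.1 for each of these non-overlapping shares, the smallest it allows. The counterparts themselves were lower in CD11b+ than in GFP+ cells in 3 of 3 cases, against 6.91% of all genes in control cerebellum (Psmb5 -2.33 ± 0.53, Psmb6 -1.66 ± 0.4 and Psmb7 -2.51 ± 0.64 on the log2 scale, limma adjusted p = 0.00729, 0.00936 and 0.0131) and 3 of 3 against 10.2% in tumors. A share can therefore differ through either member of its pair.

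**Figure D3:**
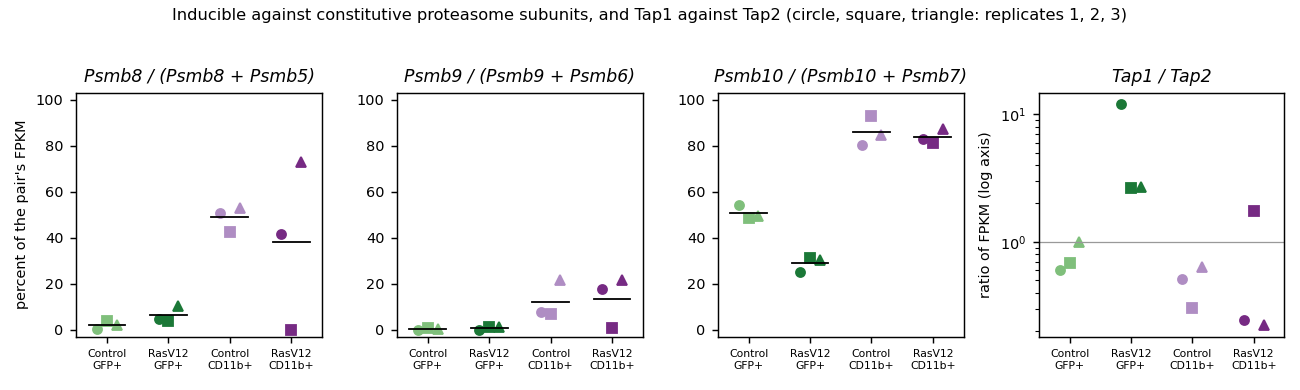
Share of the inducible subunit in the summed FPKM of an inducible and constitutive pair, in percent (first 3 panels, lines are group means), and FPKM of Tap1 over that of Tap2 (right panel, log axis), by library. Psmb8 shares are 42.6% to 53.0% in control CD11b+ against 0.486% to 3.91% in control GFP+ libraries, and Tap1 exceeds Tap2 in all 3 RasV12 GFP+ libraries.

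In control cerebellum, 6 of the 9 genes were higher in CD11b+ than in GFP+ cells, where 19.3% of all genes were called higher and 6.91% lower. These were B2m, H2-K1, H2-D1, Tap2, Tapbp and Nlrc5. B2m was 2.79 ± 0.34 higher on the log2 scale (limma adjusted p = 0.000142), and passed in 25 of 25 alternatives. Tapbp was 2.63 ± 0.64 higher (adjusted p = 0.0103) and Tap2 2.76 ± 0.94 higher (adjusted p = 0.0446), with means 6.48 and 7.94 times those of GFP+ cells. H2-K1 and H2-D1 were 1.89 ± 0.57 and 1.98 ± 0.61 higher (adjusted p = 0.0277 and 0.0314), 3.9 and 4.89 times. Nlrc5 was 6.04 ± 1.4 higher (adjusted p = 0.00822), against a control GFP+ group with reads in 1 library only. For 8 of 9 genes the groups did not overlap in the higher direction, as was true of 32.9% of all genes, and Tap1 was the exception through control CD11b+ 2. Without that library Tap1 was 3.11 ± 0.65 higher and passed (adjusted p = 0.00867).

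Of these control calls, those of H2-K1, H2-D1 and Tap2 were close to the threshold. H2-K1 passed in 17, H2-D1 in 16, Tap2 in 12, Tapbp in 24 and Nlrc5 in 23 of 25 alternatives. Among single libraries, leaving out control GFP+ 2 or 3 or control CD11b+ 1 or 3 ended the calls of H2-K1, H2-D1 and Tap2, with adjusted p from 0.067 to 0.13. Without control GFP+ 1 H2-D1 and Tap2 were lost (adjusted p = 0.0562 and 0.0701), and without RasV12 GFP+ 2 or 3 Tap2 was lost (adjusted p = 0.0557 and 0.0516).

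**Figure D4:**
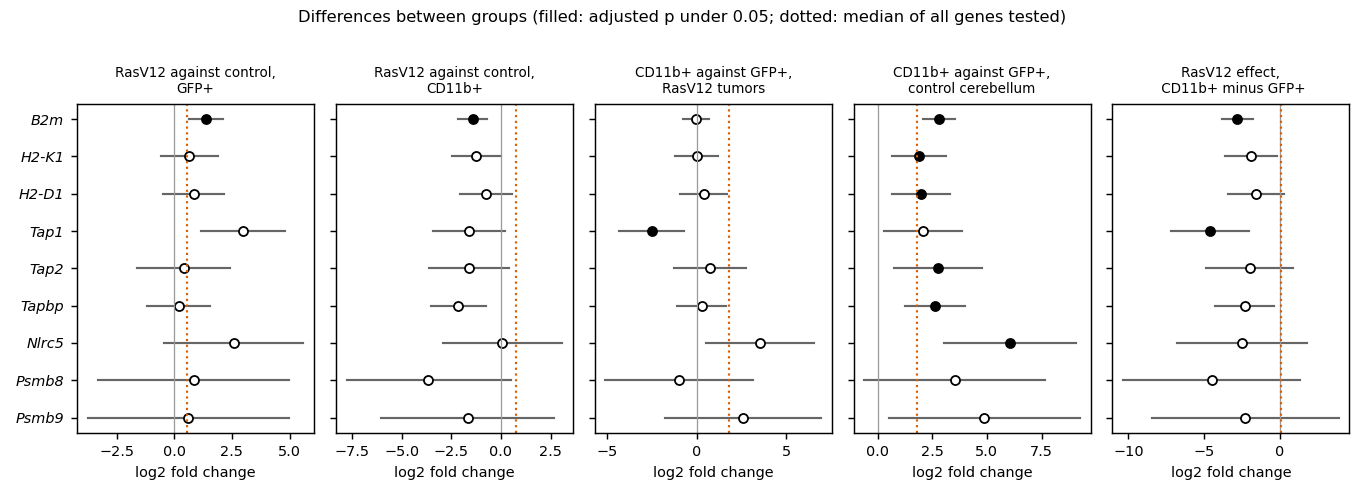
Log2 fold change with 95% interval of each gene in the 4 comparisons and in the difference of the RasV12 effects (x axis: log2 fold change, scale differs by panel). Filled points passed the limma test at adjusted p under 0.05, and the dotted line is the median of all genes tested. B2m is filled in both RasV12 comparisons with opposite signs, and 6 genes are filled in control cerebellum.

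Within tumors none of the class I chains passed between phagocytes and GFP+ cells by limma, edgeR or DESeq2, nor at an unadjusted p under 0.05. B2m differed by -0.02 (95% interval -0.75 to 0.71), H2-K1 by -0.01 (-1.24 to 1.21) and H2-D1 by 0.39 (-0.93 to 1.71) on the log2 scale. These intervals leave room for differences of more than 1.5 times. The median of the 9 genes was 0.29 there, against 1.79 over all genes tested. In the other comparisons the medians of the 9 genes and of all genes were 0.84 and 0.56 for RasV12 in GFP+ cells, -1.59 and 0.74 for RasV12 in CD11b+ cells, and 2.76 and 1.80 for CD11b+ against GFP+ control cells. For the difference of effects they were -2.33 and 0.07. After quantile normalization the medians over all genes came to -0.12, 0.13, 0.30, -0.02 and 0.16 in the order RasV12 in GFP+ cells, RasV12 in CD11b+ cells, phagocytes against GFP+ cells in tumors, the same in controls, and the difference of effects, so a shift common to all genes depends on the scaling. The medians of the 9 genes were 0.66, -2.26, -0.02, 2.41 and -2.47 under that scaling. The sign turned in tumors, where only Tap1 was called.

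Peptide trimming, folding and quality control in the endoplasmic reticulum were described from a list of 9 genes, not all of them chaperones. In RasV12 GFP+ cells 2 of 9 rose by limma, Pdia3 and Uggt1, against 4.14% of all genes, while edgeR called 0 and DESeq2 3 of them. Pdia3 encodes ERp57, a partner of tapasin, and went from 4988.8 ± 1595.5 to 21251.9 ± 3484.2 normalized counts (log2 difference 2.13 ± 0.37, limma adjusted p = 0.00363). Uggt1, which re-tests the fold of glycoproteins, went from 520.8 ± 264.8 to 2295.7 ± 331.6 (2.24 ± 0.48, adjusted p = 0.0132). Against 2.39% of all genes, 3 of 9 fell in RasV12 CD11b+ cells by limma: Pdia3 by 1.78 ± 0.37, the lectin chaperone gene Canx by 1.34 ± 0.35 and Ganab, which encodes the catalytic subunit of glucosidase II, by 3.89 ± 0.87 (adjusted p = 0.0174, 0.0413 and 0.0249). These passed in 21, 7 and 18 of 25 alternatives, and edgeR called 1 of the 9 genes. Ganab differed by -1.38 without RasV12 CD11b+ 1 and 2 and lay at or below the receptor level in 2 of the 3 RasV12 CD11b+ libraries. The list's median log2 differences were 1.54 in GFP+ and -1.34 in CD11b+ cells, against 0.56 and 0.74 over all genes.

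Pdia3 thus paralleled B2m only in the signs of both RasV12 effects. In tumors B2m differed by -0.02 between CD11b+ and GFP+ cells, while Pdia3 differed by -2.5 ± 0.37 (limma adjusted p = 0.000658). Its counts were 3499.3, 6672.5 and 4794.7 in control GFP+, 20649.7, 18108.1 and 24997.9 in RasV12 GFP+, 18251.3, 6859.8 and 16899.7 in control CD11b+ and 3676.4, 5122.8 and 2754.8 in RasV12 CD11b+ libraries, and neither pair of RasV12 and control groups overlapped. In the difference of the RasV12 effects 4 of the 9 trimming, folding and quality control genes were lower, against 2.34% of all genes. These were Pdia3 (-3.91 ± 0.52, limma adjusted p = 0.00148), Ganab (-6.84 ± 1.24, adjusted p = 0.00831), Canx (-2.37 ± 0.49, adjusted p = 0.016) and Calr (-3.02 ± 0.69, adjusted p = 0.0257). Calr encodes calreticulin, which holds the class I heavy chain during loading. Pdia3 and Ganab passed in 24 of 24 alternatives, Canx in 21 and Calr in 16. The same 4 genes were lower in CD11b+ than in GFP+ cells of tumors, while Erap1, the aminopeptidase that trims class I peptides, was 2.9 ± 0.89 higher (limma adjusted p = 0.0207). Of all genes, 10.2% were called lower and 29.8% higher there.

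Of 18 non-classical class I and class I-like genes, 5 rose in RasV12 GFP+ cells, against 4.14% of all genes. These were Cd1d1, H2-Q1, H2-Q2, H2-Q6 and H2-Q10. H2-Q6 had 1.2, 0 and 0 normalized counts in control GFP+ and 33.9, 258.0 and 578.0 in RasV12 GFP+ libraries (limma adjusted p = 0.00189). In RasV12 CD11b+ cells H2-T23, which encodes Qa-1, fell from 1539.4 ± 855.6 to 120.2 ± 97.9 (log2 difference -4.22 ± 1.02, adjusted p = 0.0325), and H2-Q2 and H2-T10 were called higher, where 2.39% of all genes were called lower and 2.97% higher. Of the 18 genes, limma called 4 there and edgeR 2. H2-T23 passed in 19 of 25, H2-Q2 in 16 of 24 and H2-T10 in 8 of 24 alternatives. H2-Q2, H2-T10 and H2-T23 were at or below the receptor level in all 3 RasV12 CD11b+ libraries. Cd1d1, a lipid-presenting class I-like gene, had no read in control GFP+ and in RasV12 CD11b+ libraries, 385.7 to 563.5 normalized counts in control CD11b+ libraries and 99.7 to 228.2 in RasV12 GFP+ libraries. It was called in both RasV12 comparisons, higher in GFP+ and lower in CD11b+ cells (adjusted p = 0.000853 and 0.00074). Sequence shared among the H2-Q and H2-T genes was not measured, so reads may be split between some of them and their separate values are uncertain.

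None of Psmb10, Psme1, Psme2 and Pomp, which serve the immunoproteasome, its PA28 activator and its assembly, passed in any of the 5 comparisons by limma. At an unadjusted p under 0.05, 1 of the 4 passed in tumors and 1 in control cerebellum between CD11b+ and GFP+ cells, and 0 in the others. Pomp was called lower in tumors by edgeR, and Psme1 and Psme2 higher in control cerebellum by DESeq2. None of the 11 core subunit genes passed in either RasV12 comparison by limma, edgeR or DESeq2, nor at an unadjusted p under 0.05 in limma, while 9 of 11 were lower in CD11b+ than in GFP+ cells of tumors and 6 of 11 in control cerebellum, against 10.2% and 6.91% of all genes. In control cerebellum edgeR called 1 of the 11. Psmb1, for example, was lower by -3.08 ± 0.65 in tumors and -2.28 ± 0.65 in controls (limma adjusted p = 0.00398 and 0.0225).

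Among 13 genes of interferon receptors, their kinases and transcription factors, 3 rose in RasV12 GFP+ cells and 1 fell in RasV12 CD11b+ cells by limma, against 4.14% and 2.39% of all genes. In GFP+ cells edgeR called 1 and DESeq2 2 of them. Irf8 had 0, 0 and 12.2 normalized counts in control GFP+ and 396.5, 212.1 and 171.3 in RasV12 GFP+ libraries (limma adjusted p = 0.000934). It encodes a transcription factor that macrophages also express, and RasV12 CD11b+ libraries held 2054.7 to 3642.4. Whether macrophage RNA had a part in its rise in GFP+ cells was not tested. Irf9, a part of the complex that answers type I interferon, went from 53.8 ± 93.2 to 482.5 ± 222.5 (limma adjusted p = 0.0319), and passed in 14 of 25 alternatives. Ifngr1, the ligand-binding chain of the interferon gamma receptor, rose in GFP+ cells from 346.9 ± 83.6 to 1113.1 ± 206.6 (1.69 ± 0.46, adjusted p = 0.0441). In CD11b+ cells it fell from 26347.1 ± 14825.7 to 2951.7 ± 230.5 (-2.93 ± 0.46, adjusted p = 0.00659), and the difference of these effects was -4.62 ± 0.66 (adjusted p = 0.00217). The GFP+ call of Ifngr1 passed in 9 of 25 alternatives. Irf1 did not pass in either RasV12 comparison, at limma adjusted p = 0.369 in GFP+ and 0.242 in CD11b+ cells. In control cerebellum 11 of 13 genes of this list were higher in CD11b+ than in GFP+ cells by limma and 6 by edgeR, against 19.3% of all genes by limma.

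Of the 7 interferon genes, 2 were tested and none passed in the 5 comparisons by limma or edgeR, nor at an unadjusted p under 0.05 in limma, while DESeq2 called 1 in control cerebellum. Ifng had no read in any of the 12 libraries. Of 10 genes of factors that work with NLRC5 at class I promoters, 9 were tested. With RasV12, limma called 1 lower in CD11b+ cells, against 2.39% of all genes, and none in GFP+ cells. Rfxap, a subunit of the RFX complex, fell in CD11b+ cells from 474.5 ± 88.6 to 11.8 ± 16 (-6.32 ± 1.01, limma adjusted p = 0.00677). Its counts in the RasV12 CD11b+ libraries were 0, 5.5 and 30.0, all below the receptor level at its length. Nfya, on the same list, shares its symbol between 2 rows and its value is uncertain. Among 7 lymphocyte receptors for class I, Klrc1, which encodes NKG2A, was called higher in RasV12 CD11b+ cells by limma (log2 difference 5.07, adjusted p = 0.0251) but not by edgeR or DESeq2. It passed in 16 of 21 alternatives, with adjusted p up to 0.397, and lay at or below the receptor level in 2 of 3 RasV12 CD11b+ libraries. Of the 7 genes, none passed in RasV12 GFP+ cells by limma (0 at an unadjusted p under 0.05) or edgeR, while DESeq2 called 1. Summed counts of 14 lymphocyte markers were 1341.8 to 4142.5 in the CD11b+ cells of tumors against 1129.3 to 1806.6 in those of controls, with overlap. Of these markers 12 were tested, with a median log2 difference of 2.43, and none was called higher. Only Cd79b was called, and it fell from 802.1 ± 179.9 to 55.9 ± 92.1 (limma adjusted p = 0.0332). The part of these markers in the class I results was not tested.

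Among themselves, the genes H2-K1, H2-D1 and Tap2 had the most similar patterns, with Pearson r of 0.94 to 0.95 over the 12 libraries on log2(normalized count + 1). B2m had r of 0.83 with H2-K1 and 0.8 with H2-D1. Tap1 stood apart, with a median r of 0.38 to the other 8 genes, against 0.5 to 0.8 for the rest. These libraries share 4 group levels and differ in depth, so the values describe the 12 libraries and carry no test. The genes outside the 9 whose pattern was most like the mean of the 9, of 15360 searched, were Rnase6, Actr3, Cyp2r1, Trim26, Gna15, Hexa, Fam49b and Grn, with r of 0.902 to 0.95. Rnase6, for example, had group means of 0.2, 11.4, 765.4 and 78.5 normalized counts in control GFP+, RasV12 GFP+, control CD11b+ and RasV12 CD11b+ cells.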

How the data were processed

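The authors deposited a signal per gene, read counts over 1 scaling factor for each library, and FPKM values in a second deposited table with the same scaling between libraries (median CV of their ratio 0.16% over 1233 genes). Sepazol extraction was followed by SMARTer low-input cDNA synthesis and Nextera XT library construction, per the labels' protocols, a route without strand information. Per the submitters' processing notes, the genome build was GRCm38.p6 and the tools were HISAT2 2.1.0, DESeq2 1.20.0, Subread 1.6.2 with featureCounts, and bcl2fastq 2.17.1.14, with no role stated. At least 99.99% of the deposited values in each library were whole multiples of its smallest step (tolerance 0.05), so whole reads could be recovered, each worth 0.358 to 5.538 normalized counts. A gene with few reads is therefore measured coarsely in RasV12 CD11b+ 1 and 2. After adding 1 and taking log2, normalized counts were fitted in limma 3.58.1 under R 4.3.3 with a mean-variance trend, for genes with at least 10 in at least 3 libraries, over 12 libraries with 1 mean per group and Benjamini-Hochberg adjustment at 0.05. The pipeline was also run on simulated data, which checks the code and none of the results given here. A difference on this scale understates that of low genes. FPKM served for levels between genes. Alternatives included edgeR 4.0.16 and DESeq2 1.42.0 on recovered reads, other scalings, filters and pseudocounts, receptor signal subtracted, and leaving out each library. Receptor signal was the normalized count per kb of 1494 olfactory, vomeronasal and taste receptor genes. The members and gene lists were chosen with earlier results of these data known. All 9 genes are named, and of each other list up to 4 genes with the smallest adjusted p, from which the text gives a selection. Erap1, H2-Q1, Ifng, Irf1, Psmb10, Psme1, Psme2 and Pomp fall outside that rule and were named after their values were seen. Gene positions are from GENCODE on GRCm38, which matched 98.3% of IDs, and 7 of the 9 genes matched the RefSeq promoter table (GRCm38.p6).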

Additional observations from a re-analysis of the deposited data

Results flagged for a closer look

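The RasV12 effect differed between the sorted populations for B2m, by -2.81 on the log2 scale, and for Tap1, by -4.61 (CD11b+ minus GFP+, limma adjusted p = 0.00659 and 0.0444). Both differences were tested directly over all 12 libraries. B2m had non-overlapping groups in both populations, higher with RasV12 in GFP+ and lower in CD11b+ cells, whereas Tap1 counts overlapped between the CD11b+ groups. Tap1 lay below the receptor level at its length in all 3 RasV12 CD11b+ libraries.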

How the results depend on the processing

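RasV12 against control in GFP+ cells is called the first comparison here, the same in CD11b+ cells the second, CD11b+ against GFP+ cells of tumors the third, that of controls the fourth, and the difference of effects the fifth. Calls of the 9 genes moved as follows. In the first, higher calls went from 1 to 2 with pseudocount 10, with a mean filter of 100, with DESeq2, in the fit of 6 libraries and without both low-depth libraries, and to 0 with no filter, upper-quartile scaling, edgeR and receptor signal subtracted. In the second, lower calls went from 1 to 2 with pseudocount 10, upper-quartile scaling and DESeq2, and to 0 with no filter, 6 libraries and without the low-depth libraries. The count stayed at 1 with quantile scaling and edgeR, where Tapbp was called and B2m was not, and with subtraction, where Nlrc5 was. In the first it stayed at 1 with FPKM, where Tap1 was called and B2m was not. In the third, higher calls went from 0 to 1 with pseudocount 10, FPKM and 6 libraries, and lower calls from 1 to 0 without the low-depth libraries. In the fourth, higher calls went from 6 to 3 with no filter and upper-quartile scaling, 2 with edgeR and 1 with subtraction. In the fifth, lower calls went from 2 to 1 with no filter, quantile scaling, subtraction, the replicate block and without the low-depth libraries. Calls over all genes went from 2027 to 1043 (quantile), 1122 (edgeR), 4907 (DESeq2), 3583 (6 libraries) and 1137 (subtraction) in the first. In the second they went from 1599 to 4736 (pseudocount 10), 2421 (quantile), 434 (edgeR), 2403 (DESeq2), 27 (6 libraries), 2954 (subtraction), 532 (without low-depth libraries) and 2608 (FPKM). In the third they went from 11953 to 4692 (edgeR) and 3671 (without low-depth libraries), in the fourth from 7826 to 4104 (quantile), 4613 (edgeR) and 3660 (subtraction), and in the fifth from 1312 to 2018 (pseudocount 10), 3135 (DESeq2) and 2424 (subtraction). Leaving out single libraries gave 0 to 2 higher calls in the first, 0 to 3 lower in the second, 0 to 1 higher and 0 to 1 lower in the third, 3 to 7 higher in the fourth and 1 to 3 lower in the fifth, and 1005 to 2482, 307 to 5390, 8093 to 12473, 5198 to 8864 and 575 to 2384 genes in all. The cause was not tested.

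Log2 values that turned sign were of genes not called in the main analysis, and 1 of them passed after turning: Nlrc5 in the second comparison with subtraction (adjusted p = 0.036). In the first comparison Psmb9 was -0.08 with quantile scaling. In the second, Nlrc5 was -0.55 (upper quartile), -1.88 (quantile), -0.83 (edgeR), -0.22 (DESeq2) and -6.47 (subtraction), H2-D1 was 0.06 (quantile) and Psmb9 0.08 (without low-depth libraries). In the third, H2-D1 was -0.35 (upper quartile) and -1.11 (edgeR), and Tapbp was -0.45 (upper quartile), -0.02 (quantile), -0.98 (edgeR) and -0.3 (subtraction). B2m was 0.69 (quantile), 0.08 (DESeq2) and 0.71 (without low-depth libraries), and H2-K1 was 0.37 in the last of these. Tap2 was -0.66 (quantile), -0.59 (edgeR) and -4.44 (subtraction). Psmb8 was 0.06 (pseudocount 10), 0.48 (edgeR), 1.55 (DESeq2) and 2.66 (without low-depth libraries), and Nlrc5 was -1.98 with subtraction. In the fourth, Tap1 was -0.27 with subtraction. Without single libraries, values spanned -0.11 to 1.34 (Tap2), -0.18 to 0.69 (Tapbp), -0.09 to 1.44 (Psmb8) and -1.36 to 2.89 (Psmb9) in the first and -0.42 to 0.69 (Nlrc5) in the second. In the third they spanned -0.39 to 0.36 (B2m), -0.69 to 0.38 (H2-K1), -0.31 to 0.8 (H2-D1), -0.18 to 1.27 (Tap2), -0.07 to 0.53 (Tapbp) and -2.79 to 2.14 (Psmb8).

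The labels do not say whether replicate numbers pair the libraries, and same-numbered deviations correlated at -0.03 to 0.09, which gave no sign of pairing. With the replicate block, the calls of Tap1 in the fifth comparison (adjusted p = 0.0669) and Tap2 in the fourth (adjusted p = 0.0547) were lost. Depth limits the comparisons with RasV12 CD11b+ cells, in which 2 of the 3 libraries hold 2951629 and 3642570 reads.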
